A study of Homo sapiens with 10 samples.

Results

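The genes of cholesterol and fatty acid synthesis were followed in ST486, an established human Burkitt's lymphoma cell line, after a lentivirus had carried in a short hairpin RNA (shRNA) against the kinase gene STK38. Of 35 listed genes of the pathway, 28 had a probe set annotated to that gene alone, among 8226 such genes on the array. The 28 were measured by 30 probe sets, and a gene with several was read at its main probe set, the one with the highest mean over all 10 arrays. FDFT1, HSD17B7, NR1H2, SOAT1 and ACSL3 were not analysed here, and CYP51A1 and FADS1 shared every probe set with another gene. The 10 arrays were 5 of cells with the STK38 shRNA (TRCN0000010215) and 5 of cells with a non-target control shRNA (SHC002), all from ST486 at 60 h after transduction. With 1 hairpin against STK38, loss of STK38 and any binding of the hairpin to unrelated RNAs cannot be told apart. The labels name no separate cultures, so p-values reflect how much these arrays vary, and that variation may be technical. In RNA from a whole culture, fewer cells of a kind and less RNA per cell cannot be told apart.

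Cells build cholesterol from acetyl-CoA through mevalonate, isoprenoid units, squalene and lanosterol. When sterol in the endoplasmic reticulum is low, SCAP escorts the membrane-bound factors SREBP-2 and SREBP-1 to the Golgi, where proteases release them to enter the nucleus. SREBP-2 acts mostly on genes of sterol synthesis and SREBP-1c mostly on genes of fatty acid synthesis, often beside the factor NF-Y, while INSIG proteins hold SCAP back when sterol is plentiful. Dividing lymphocytes draw on this pathway for new membrane.

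The arrays were Affymetrix HG-U95Av2, with expression given as log2 values, on which a step of 1 is a doubling. STK38 itself stood between 4.80 and 5.28 on the non-target arrays and between 2.46 and 2.95 on the STK38 shRNA arrays at its brightest probe set, so the groups did not overlap. A background level of 2.36 to 2.66 per array was set from control probe sets, and 25 of the 28 genes exceeded it on all 10 arrays. STK38 shRNA replicate 4 stood apart, with a mean correlation across probe sets of 0.978 with its group where the other 4 arrays had 0.991. Of the B cell markers, 5 of 7 were above background on every array, while PAX5 and CD37 were above it on 0 arrays. Among the 5, CD79A alone was called, higher by 0.49 at its main probe set and by 0.34 at its other (limma adjusted p = 0.000689 and 0.0145). Over all probe sets tested 14.1% were called higher. None of 7 adipocyte and hepatocyte markers exceeded background on any array, nor did 4 of 7 monocyte, 5 of 6 T cell and 2 of 6 epithelial markers. Of the other epithelial markers, KRT8 exceeded it on all 10 arrays (3.84 to 4.37) and MUC1 on 4 non-target and 5 STK38 shRNA arrays. KRT18 and KRT19 exceeded it on 1 STK38 shRNA array each. The monocyte markers ITGAM, S100A8 and S100A9 did so on 0 to 1 non-target and 1 to 2 STK38 shRNA arrays. The summed level of a marker list is given as its mean over the list's genes. For the monocyte list it was 2.39 on replicate 4, 1.90 to 2.05 on the other STK38 shRNA arrays and 1.94 to 2.08 on the non-target arrays. For the epithelial list the same levels were 2.68, 2.30 to 2.46 and 2.24 to 2.46, and for the adipocyte and hepatocyte list 1.76, 1.54 to 1.59 and 1.55 to 1.62. Replicate 4 had a background of 2.65, against 2.37 to 2.44 on the other STK38 shRNA arrays and 2.36 to 2.66 on the non-target arrays. Its median over probe sets was 2.25, against 2.13 to 2.16 and 2.12 to 2.17. The monocyte and the adipocyte and hepatocyte levels of replicate 4 lay below its background. The part of that array's raised low values in its marker levels was not tested. The T cell list ran from 1.70 to 1.85 with the STK38 shRNA and from 1.90 to 1.99 without it. LCK, which some B cells express, was the 1 marker of another cell type called, lower by 1.22 on the log2 scale (limma adjusted p = 0.000383). A dimmer probe set of LCK was also called lower, by 0.99 (limma adjusted p = 0.00101), and its dimmest was not above background on any array. The other 5 T cell genes, CD3D, CD3E, CD3G, CD2 and CD5, were not above background on any array and differed by -0.011 to 0.10, so the shift of that list is that of LCK. The part of these marker levels in the results that follow was not tested.

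Promoter sequences are shown for the factor gene SREBF2, for strongly risen genes of both stretches of the pathway (MVD, ERG28, TM7SF2) and for EBP, the enzyme gene that fell. Each is the 250 bases before the annotated gene start, 5′ to 3′ on the gene's strand, from RefSeq on GRCh38.p14. Capitals mark the letters of the sterol regulatory element core TCACNCCAC, of the NF-Y box CCAAT and of the E-box CACGTG, searched on both strands; no matches overlapped. The windows lie at chr22:41832855-41833104 (plus strand) for SREBF2, chr16:88663092-88663341 (minus strand) for MVD, chr14:75660877-75661126 (minus strand) for ERG28, chr11:65111622-65111871 (plus strand) for TM7SF2 and chrX:48521558-48521807 (plus strand) for EBP.
SREBF2: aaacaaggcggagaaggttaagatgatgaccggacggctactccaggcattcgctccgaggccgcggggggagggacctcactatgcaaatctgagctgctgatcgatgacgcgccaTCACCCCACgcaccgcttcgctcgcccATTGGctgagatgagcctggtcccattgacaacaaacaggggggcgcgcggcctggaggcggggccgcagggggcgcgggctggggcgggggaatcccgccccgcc
MVD: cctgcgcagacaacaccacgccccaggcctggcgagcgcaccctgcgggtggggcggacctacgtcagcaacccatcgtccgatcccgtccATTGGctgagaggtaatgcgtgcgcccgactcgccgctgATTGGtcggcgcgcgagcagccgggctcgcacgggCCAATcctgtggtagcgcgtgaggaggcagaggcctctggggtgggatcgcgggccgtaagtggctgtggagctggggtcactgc
ERG28: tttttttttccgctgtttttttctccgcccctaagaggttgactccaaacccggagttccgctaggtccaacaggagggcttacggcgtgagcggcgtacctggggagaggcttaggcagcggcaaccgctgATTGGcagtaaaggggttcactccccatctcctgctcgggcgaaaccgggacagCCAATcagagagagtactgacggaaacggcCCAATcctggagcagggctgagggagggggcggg
TM7SF2: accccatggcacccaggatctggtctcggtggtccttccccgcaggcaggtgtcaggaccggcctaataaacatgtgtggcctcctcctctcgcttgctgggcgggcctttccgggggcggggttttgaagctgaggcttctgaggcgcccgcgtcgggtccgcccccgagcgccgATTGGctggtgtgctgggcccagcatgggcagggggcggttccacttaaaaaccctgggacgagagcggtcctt
EBP: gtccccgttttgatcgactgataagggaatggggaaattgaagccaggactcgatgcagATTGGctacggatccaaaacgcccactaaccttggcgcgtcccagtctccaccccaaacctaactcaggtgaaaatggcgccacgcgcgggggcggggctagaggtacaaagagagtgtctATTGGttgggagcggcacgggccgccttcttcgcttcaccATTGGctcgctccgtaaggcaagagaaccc
In SREBF2 the sterol element began 133 bases and the NF-Y box 106 bases before the gene start. MVD, ERG28 and EBP each held 3 NF-Y boxes in this stretch, and TM7SF2 held 1, at 74 bases.

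Over windows of 300 bases (250 before to 50 after a gene start), the NF-Y box was in 27 of 41 windows of the pathway's genes, or 65.9%, against 34.6% of all 35116 windows of the table. ACAT2, FASN, FABP5, SQLE and FDFT1 were not searched. By gene, 23 of the 30 listed genes with a window held it, 76.7%, against 39.7% of all genes. All genes here are the 27305 of the table, more than the 8226 with a probe set of their own. They were not matched to the pathway's genes in kind or expression. It was in 15 of the 16 genes called higher (below) that have a window. Of the 8 other measured genes with a window, 5 held it, EBP among them. By window it was in 17 of 23 (73.9%) and in 7 of 12 (58.3%). That split by call was not tested. The sterol element core was in 1 of the 41 windows, that of SREBF2, or 2.44%, where 1.13% of all windows held it. The E-box was in 5 windows, of INSIG1, LSS, SC5D and SCAP, or 12.2% against 7.26%. These counts describe exact matches to these letters in a short stretch, so a site spelled otherwise or lying outside it was not counted. The share of the sterol element core rests on 1 window.

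Cholesterol synthesis genes were higher with the STK38 shRNA along most of the pathway. Most fatty acid synthesis genes were not called, which also held for most of all probe sets tested. A gene was called when limma, a linear model fitted over 7535 probe sets, gave an adjusted p (Benjamini-Hochberg over all of them) under 0.05, which 29.9% did. All 28 genes passed the filter on low values, and 19 of them were called higher, where 14.1% of all probe sets tested were, and 1, EBP, was called lower, where 15.8% were. The median difference of the 28 genes was 0.61 on the log2 scale (STK38 shRNA minus non-target) and that of all probe sets tested was 0.018. At 10 genes the called rise was at least 2-fold, a size reached by 1.33% of all probe sets, and at 0 genes the called fall was, where 2.91% of all probe sets had one. At 16 genes every STK38 shRNA array was above every non-target array, which held for 9.33% of all probe sets tested, and at EBP every one was below, which held for 12.8% (22.1% in either direction). Without STK38 shRNA replicate 4 all 19 were called again, with PMVK, SCAP and ACACA in addition, and the median was 0.65, so the rises were as large without that array.

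**Figure D1:**
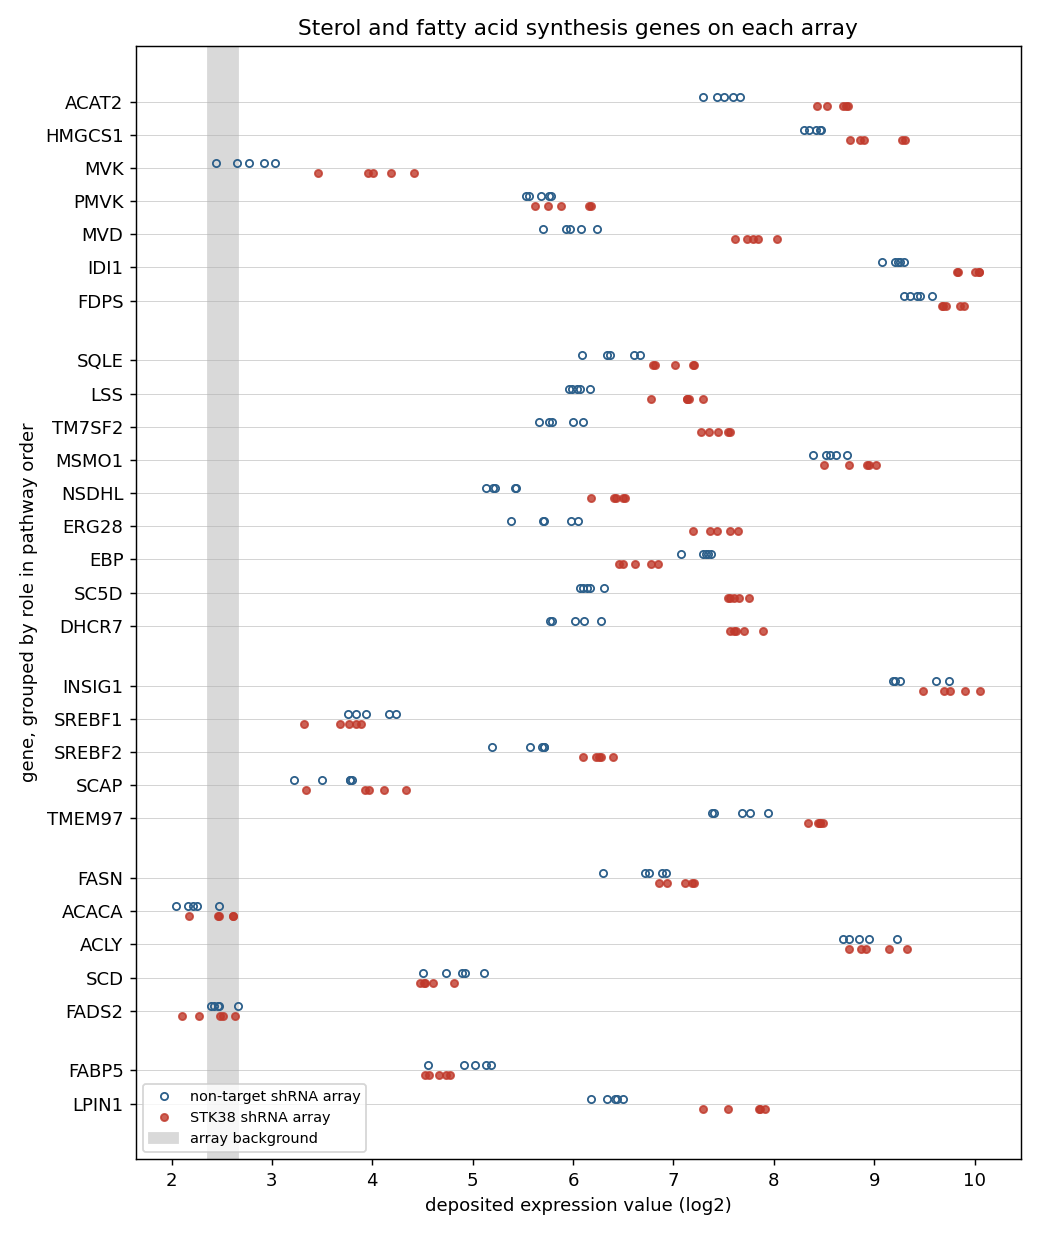
Deposited log2 value of each gene on each array, with non-target arrays as open circles, STK38 shRNA arrays as filled circles and the range of the array background in grey; levels of different genes cannot be compared on an array. The groups are apart for most genes from ACAT2 to TMEM97, EBP is shifted the other way, and the MVK controls, ACACA and FADS2 lie near the background.

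The enzymes from acetyl-CoA to farnesyl diphosphate were mostly higher, with 6 of 7 genes called higher and a median difference of 0.73. MVD, the decarboxylase that makes isopentenyl diphosphate, had values of 5.97, 6.08, 6.24, 5.70 and 5.93 on non-target replicates 1 to 5. With the STK38 shRNA they were 8.03, 7.73, 7.85, 7.61 and 7.79. The lowest STK38 shRNA array thus lay 1.37 above the highest control array, a wide gap beside the spread within each group. MVD rose 3.52-fold (log2 difference 1.82, SE 0.11, adjusted p = 2.93e-08), rank 8 among the rises of all 7535 probe sets.

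ACAT2, the cytosolic thiolase that joins acetyl-CoA units, ran from 7.30 to 7.66 on the control arrays and from 8.43 to 8.73 with the STK38 shRNA. It rose 2.18-fold (log2 difference 1.12, SE 0.088, adjusted p = 3.35e-07). HMGCS1, which makes HMG-CoA, stood at 8.47, 8.30, 8.46, 8.42 and 8.35 in the controls and at 9.31, 8.76, 8.90, 8.86 and 9.28 with the STK38 shRNA. Replicates 1 and 5 of the STK38 shRNA group were the high pair here, and the groups did not overlap. HMGCS1 rose 1.54-fold (0.62, SE 0.10, adjusted p = 0.000291).

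MVK, mevalonate kinase, was dim in the controls, at 2.65, 3.03, 2.92, 2.77 and 2.44, of which 4 exceeded background. Its STK38 shRNA values were 3.96, 4.18, 4.00, 3.46 and 4.42, all above background and above every control. The measured rise was 2.37-fold (1.24, SE 0.17, adjusted p = 6.11e-05), from a control level close to background. The next kinase, PMVK, was the 1 gene of this stretch not called. Its control values of 5.53 to 5.78 overlapped STK38 shRNA values of 5.62 to 6.18 (difference 0.26, 95% interval -0.01 to 0.52, adjusted p = 0.146), and it passed without STK38 shRNA replicate 4, the lowest of its group (adjusted p = 0.0281).

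IDI1, the isomerase of isopentenyl diphosphate, was tight within groups, from 9.08 to 9.30 in the controls and from 9.82 to 10.05 with the STK38 shRNA. It rose 1.66-fold (0.73, SE 0.065, adjusted p = 9.94e-07). FDPS, which joins the units into farnesyl diphosphate, had the smallest called rise of the stretch, 1.27-fold (0.34, SE 0.066, adjusted p = 0.00108), from 9.30 to 9.58 in the controls against 9.68 to 9.90. Its groups were only 0.10 apart on the log2 scale, yet did not overlap.

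From squalene to cholesterol, 8 of the 9 measured genes were called higher and 1 lower, with a median difference of 1.12. DHCR7, the reductase of the last step of the Kandutsch-Russell route, had control values of 5.79, 6.28, 6.11, 6.02 and 5.77. Its STK38 shRNA values were 7.62, 7.89, 7.56, 7.61 and 7.70. The lowest STK38 shRNA array lay 1.29 above the highest control. DHCR7 rose 3.21-fold (1.68, SE 0.11, adjusted p = 6.43e-08; rank 11 among all rises).

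ERG28 encodes a membrane scaffold that holds the sterol demethylation enzymes together. It stood at 5.98, 6.05, 5.71, 5.70 and 5.38 in the controls and at 7.57, 7.19, 7.37, 7.43 and 7.64 with the STK38 shRNA. Non-target replicate 5 was the low array of its group, and the groups were 1.15 apart. The rise was 3.20-fold (1.68, SE 0.13, adjusted p = 2.95e-07; rank 12). TM7SF2, a sterol reductase of the inner nuclear membrane and endoplasmic reticulum, went from 5.66, 5.79, 6.10, 5.76 and 6.00 to 7.54, 7.56, 7.27, 7.35 and 7.45. It rose 2.98-fold (1.57, SE 0.10, adjusted p = 6.52e-08; rank 15), with the groups 1.18 apart.

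SC5D, the desaturase that acts just before DHCR7, varied little within groups. Its controls were at 6.17, 6.10, 6.13, 6.07 and 6.30 and its STK38 shRNA arrays at 7.75, 7.54, 7.56, 7.61 and 7.65, a rise of 2.76-fold (1.47, SE 0.083, adjusted p = 1.51e-08; rank 17). NSDHL, a dehydrogenase of the demethylation steps whose product works on the ERG28 scaffold, rose 2.18-fold (1.12, SE 0.11, adjusted p = 1.96e-06), from 5.13 to 5.43 in the controls against 6.18 to 6.52. SQLE, squalene epoxidase, a rate-limiting oxygenation, rose less, 1.50-fold (0.59, SE 0.13, adjusted p = 0.00241). Its controls ran from 6.09 to 6.67 and its STK38 shRNA arrays from 6.79 to 7.20, only 0.12 apart.

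LSS, lanosterol synthase, which closes the sterol rings, differed between its probe sets. The brighter went from 6.04, 5.96, 6.06, 5.99 and 6.17 to 7.29, 7.14, 7.14, 6.77 and 7.16, a rise of 2.08-fold (1.05, SE 0.10, adjusted p = 2.81e-06). The dimmer lay near background, above it on 3 control and 5 STK38 shRNA arrays, with means of 2.59 ± 0.15 and 2.69 ± 0.14 (SD, n = 5 each), and was not called (limma adjusted p = 0.556). MSMO1, the methylsterol oxidase of the demethylation steps, was bright and moved little. Its main probe set was called (1.20-fold, difference 0.27, SE 0.097, adjusted p = 0.0494) with overlapping groups, 8.39 to 8.73 against 8.50 to 9.02, and the other had 0.24 (adjusted p = 0.154). The call was lost when any of STK38 shRNA replicates 1, 2 and 5 or non-target replicates 1, 3, 4 and 5 was left out (adjusted p 0.0694 to 0.131).

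EBP, the sterol isomerase between the demethylation steps and SC5D, was the exception. Its controls were at 7.34, 7.29, 7.33, 7.08 and 7.37 and its STK38 shRNA arrays at 6.78, 6.46, 6.50, 6.61 and 6.85. Each STK38 shRNA array was below each control array, by at least 0.23. EBP fell by 0.64 (log2; SE 0.099, adjusted p = 0.000169), while the genes listed around it in the pathway, NSDHL, SC5D and DHCR7, were all called higher. Its promoter letters, shown above, held 3 NF-Y boxes, as many as those of MVD and ERG28.

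**Figure D2:**
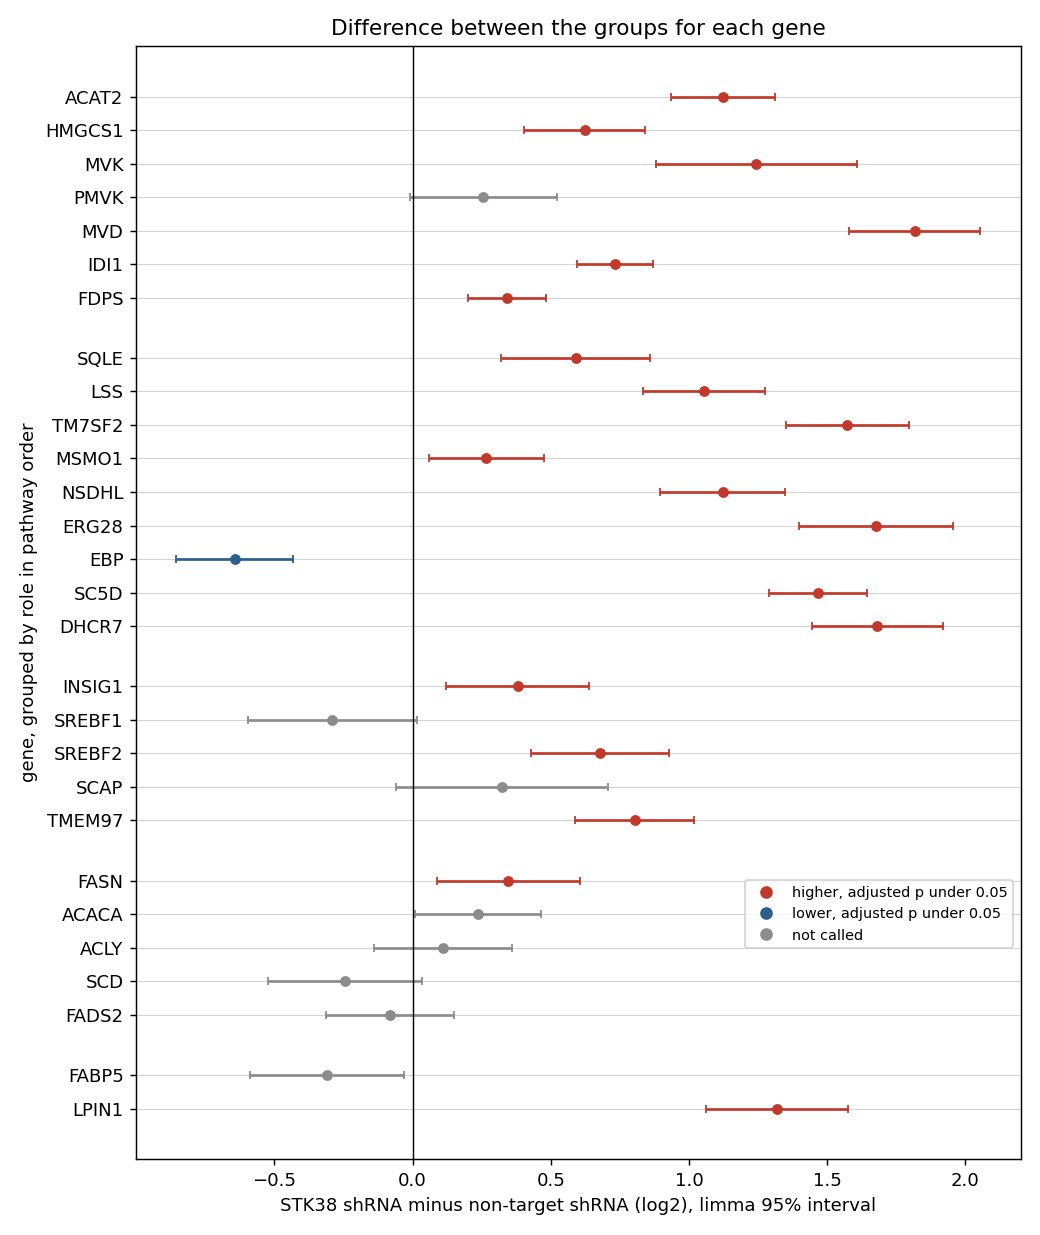
Difference between the groups for each gene (log2, STK38 shRNA minus non-target) with its 95% limma interval, in red where called higher, blue where called lower and grey where not called. Intervals of the mevalonate and sterol genes lie right of 0 apart from PMVK, which spans it, and EBP at -0.64; in the fatty acid synthesis group FASN alone is called.

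Of the 5 measured regulators, 3 were called higher and 0 lower, with a median difference of 0.38. SREBF2, which encodes SREBP-2, went from 5.71, 5.71, 5.69, 5.57 and 5.19 to 6.39, 6.27, 6.26, 6.23 and 6.10. It rose 1.60-fold (0.68, SE 0.12, adjusted p = 0.000453), and the groups did not overlap. SREBF1, which encodes SREBP-1a and SREBP-1c, had lower values on average, from 4.23, 3.76, 4.17, 3.84 and 3.93 to 3.77, 3.84, 3.89, 3.32 and 3.68. That difference of -0.29 was not called (95% interval -0.59 to 0.02, adjusted p = 0.153), and its groups overlapped. The difference between the shifts of these genes was not tested.

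SCAP, the sterol-sensing escort, had a difference of 0.32 (95% interval -0.06 to 0.71, adjusted p = 0.208). Its STK38 shRNA values were 3.96, 4.12, 4.34, 3.34 and 3.93, with replicate 4 the low array, against 3.22 to 3.80 in the controls. Without that array it passed the test (difference 0.47, adjusted p = 0.0113). INSIG1, the retention factor whose own transcription SREBPs drive, stood at 9.62, 9.21, 9.26, 9.18 and 9.75 in the controls and at 10.06, 9.76, 9.70, 9.49 and 9.91 with the STK38 shRNA. Non-target replicates 1 and 5 overlapped the other group. INSIG1 rose 1.30-fold (0.38, SE 0.12, adjusted p = 0.0268), a call lost without any of STK38 shRNA replicates 1 and 5 or non-target replicates 2, 3 and 4 (adjusted p 0.0646 to 0.0772).

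TMEM97, the sigma-2 receptor, a sterol-regulated membrane protein that binds the cholesterol transporter NPC1, had the largest difference of the 5. Its STK38 shRNA values lay within 8.34 to 8.49, where the controls spread from 7.38 to 7.94. It rose 1.74-fold (0.80, SE 0.10, adjusted p = 2.99e-05).

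Fatty acid synthesis and desaturation genes were mostly not called, with 1 of 5 called higher, 0 lower and a median difference of 0.11. Of all probe sets tested, 14.1% were called higher and 15.8% lower, so 1 call among 5 genes is near the general share. FASN, the fatty acid synthase, stood at 6.75, 6.88, 6.92, 6.71 and 6.29 in the controls and at 7.19, 7.11, 7.20, 6.86 and 6.94 with the STK38 shRNA. The groups overlapped, since STK38 shRNA replicate 4 lay below the highest control. FASN rose 1.27-fold (0.35, SE 0.12, adjusted p = 0.0431), and was no longer called without any of STK38 shRNA replicates 1, 2 and 3 or non-target replicates 1, 4 and 5 (adjusted p 0.0678 to 0.103). ACLY, which supplies cytosolic acetyl-CoA from citrate, was bright and had a difference of 0.11 (95% interval -0.14 to 0.36, adjusted p = 0.553), with controls from 8.69 to 9.23 and STK38 shRNA arrays from 8.75 to 9.33.

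ACACA, acetyl-CoA carboxylase, which makes malonyl-CoA, lay at background, above it on 1 control and 4 STK38 shRNA arrays. Its difference of 0.24 was not called (95% interval 0.01 to 0.47, adjusted p = 0.115) and passed without STK38 shRNA replicate 4 (adjusted p = 0.0118). The desaturase gene SCD had 5.11, 4.93, 4.90, 4.50 and 4.73 in the controls and 4.61, 4.48, 4.53, 4.51 and 4.82 with the STK38 shRNA. Its difference was -0.25 (95% interval -0.52 to 0.03, adjusted p = 0.185), with overlapping groups. FADS2, the desaturase of polyunsaturated fatty acids, was above background on 3 control and 2 STK38 shRNA arrays and had a difference of -0.081 (adjusted p = 0.654). The intervals of ACLY and SCD, both above background on every array, reach no further than 0.52 from 0. Rises the size of those of MVD or DHCR7 thus lie outside them. The dim ACACA and FADS2 allow no such reading. Smaller called rises, such as those of FDPS (0.34) and MSMO1 (0.27), lie within the interval of ACLY.

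Of the genes that handle fatty acids further on, LPIN1 rose and FABP5 was not called. LPIN1 encodes lipin-1, which makes diacylglycerol from phosphatidate and whose transcription SREBPs raise. It went from 6.18, 6.42, 6.43, 6.50 and 6.34 to 7.91, 7.86, 7.55, 7.29 and 7.85, with replicates 3 and 4 the lower STK38 shRNA arrays. The rise was 2.49-fold (1.32, SE 0.12, adjusted p = 1.36e-06; rank 29), within the range of the sterol genes. FABP5, a fatty acid carrier, stood at 5.18, 4.91, 5.03, 5.13 and 4.55 in the controls and at 4.52 to 4.77 with the STK38 shRNA. Its difference of -0.31 (95% interval -0.59 to -0.03) had an adjusted p of 0.0935, and passed without non-target replicate 5, the low control (-0.41, adjusted p = 0.0155).

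**Figure D3:**
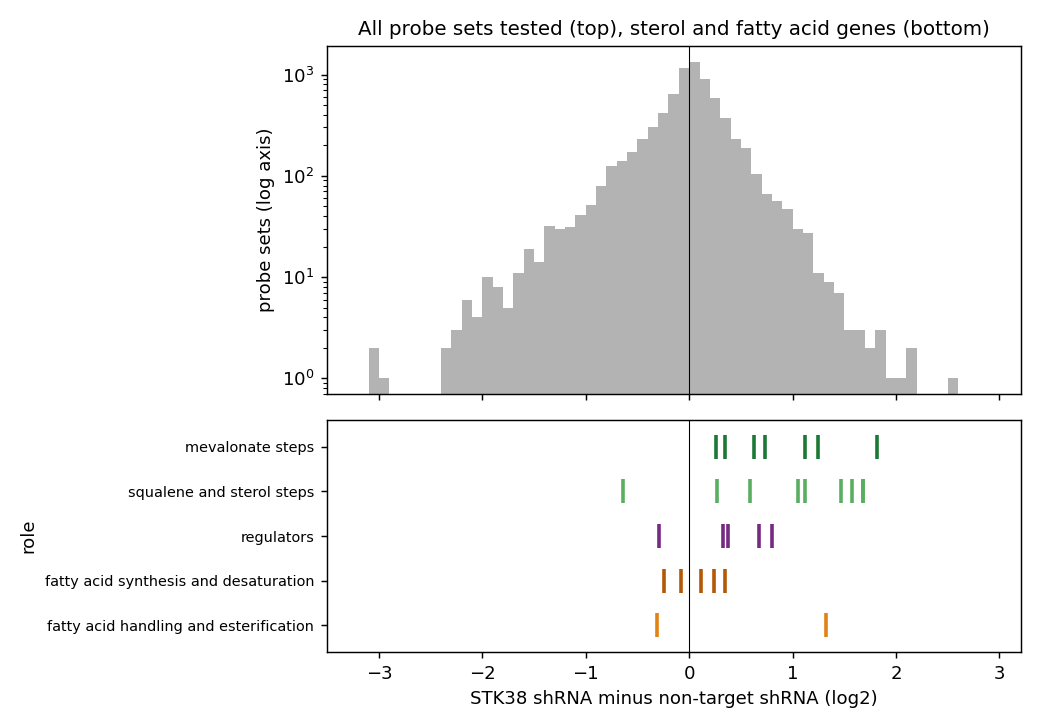
Differences of all 7535 probe sets tested (top, counts on a log axis) and of the measured pathway genes by role (bottom, a mark per gene), on the same log2 axis. Most mevalonate and sterol genes lie in the sparse right flank of the distribution. The fatty acid synthesis genes lie from -0.25 (SCD) to 0.35 (FASN), and FASN lies beside the mevalonate gene FDPS at 0.34.

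Averaged over the 28 genes, each array's level relative to the control mean was 0.49 to 0.75 on the STK38 shRNA arrays and -0.074 to 0.070 on the non-target arrays. STK38 shRNA replicate 4 had the lowest of these, 0.49, and the other 4 ran from 0.60 up. By role, the mevalonate genes averaged 0.69 to 1.05 and the squalene and sterol genes 0.86 to 1.09 with the STK38 shRNA. The control arrays lay from -0.093 to 0.10 for both, far below. The regulators averaged 0.12 to 0.49 against -0.033 to 0.089. The fatty acid synthesis genes averaged -0.044 to 0.14 against -0.048 to 0.097, with overlapping groups. Among the 19 genes called higher, STK38 shRNA replicate 1 gave the highest value of its group at 11, and replicates 3 and 4 the lowest at 8 and 6. These array means describe the chosen genes and were not tested.

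**Figure D4:**
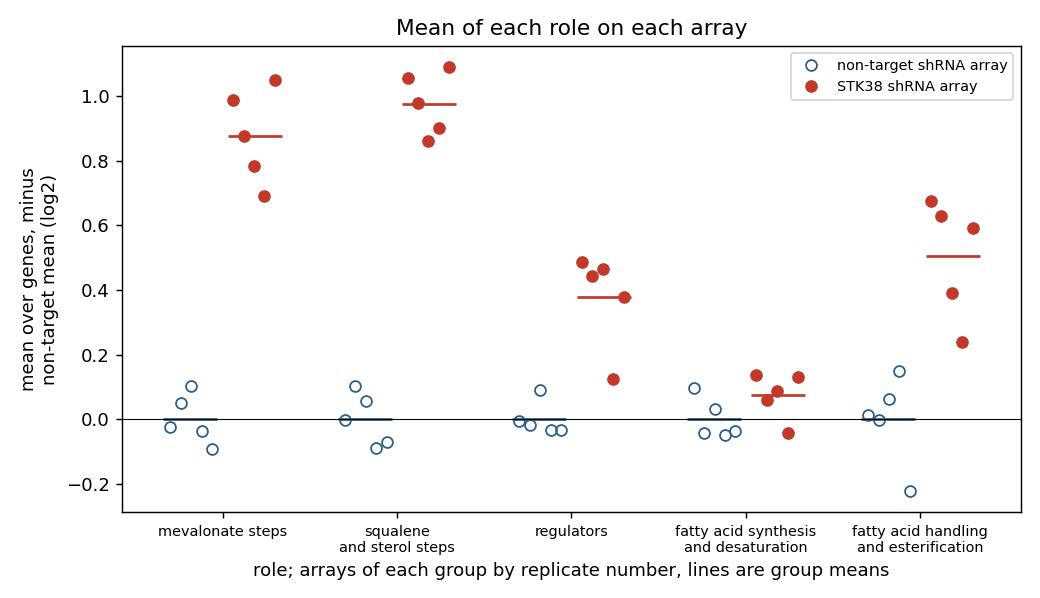
Mean over the genes of each role on each array, relative to the non-target mean (log2); open circles are non-target arrays, filled circles STK38 shRNA arrays, lines group means. The STK38 shRNA arrays lie at 0.69 or more for the mevalonate and sterol genes, and overlap the controls for fatty acid synthesis.

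Other genes of sterol and lipid metabolism went both ways. From a list of 50 compiled by hand, 29 could be tested, of which 9 were called higher and 4 lower, with a median difference of 0.16. Over all probe sets tested 14.1% were called higher and 15.8% lower, so the 4 lower calls are near the general share. LIPA, the lysosomal acid lipase that frees cholesterol from its esters, rose 2.58-fold (1.37, SE 0.13, adjusted p = 1.52e-06), from 5.57 to 6.22 in the controls against 7.12 to 7.55. The genes of the proteins that export cholesterol from lysosomes were also called higher, NPC2 by 1.86-fold (0.90, SE 0.068, adjusted p = 2.56e-07) and NPC1 by 1.68-fold (0.75, SE 0.20, adjusted p = 0.0107). NPC1 was at 5.13 to 5.43 on the STK38 shRNA arrays apart from replicate 4, at 4.20, within the control range of 4.11 to 4.47. IDH1, a cytosolic source of NADPH, rose 1.81-fold and ACSL1, which activates long-chain fatty acids, 1.72-fold (adjusted p = 3.16e-06 and 0.000660).

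INSIG2, the second retention factor, fell where INSIG1 rose. Its control values were 5.85, 5.80, 5.77, 5.41 and 5.81, and its STK38 shRNA values 4.52, 4.89, 4.43, 3.63 and 5.08. The groups did not overlap, and replicate 4 was again the lowest. INSIG2 fell by 1.22 (log2; SE 0.22, adjusted p = 0.000546). The other genes of this list called lower, named after their values were seen, were the lipoprotein receptor gene VLDLR, which fell by 0.69, the acyl-CoA synthetase gene ACSL4, at least 1.13-fold lower since 0 STK38 shRNA arrays exceeded background, and the sterol exporter gene ABCG1, not above background on any array.

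Genes of fatty acid breakdown were also called in both directions. Of 23 listed, 18 could be tested, with 6 called higher, 3 lower and a median difference of 0.16. The 3 lower calls are again near the share over all probe sets, 15.8%, where 14.1% were called higher. HADHA and HADHB encode the partner subunits of the mitochondrial trifunctional protein, which runs the later steps of beta-oxidation of long chains. HADHA had 7.77, 7.93, 8.04, 7.90 and 7.80 in the controls and 7.04, 7.21, 7.13, 6.99 and 7.06 with the STK38 shRNA. HADHB had 6.86, 7.14, 7.14, 7.16 and 6.69 in the controls and 8.01, 8.01, 7.87, 8.18 and 8.03 with the STK38 shRNA. The subunits thus moved in opposite directions with no overlap in either. HADHA fell by 0.80 (SE 0.080, adjusted p = 3.42e-06) and HADHB rose 2.03-fold (1.02, SE 0.10, adjusted p = 3.66e-06).

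HADH, the short-chain dehydrogenase of the same spiral, fell at both of its probe sets, by 0.85 where the signal was stronger and by 0.49 where it was weaker (adjusted p = 7.01e-06 and 0.00347). ACADM, the medium-chain dehydrogenase, named after its values were seen, fell by 0.46 (adjusted p = 0.00781). PPARD, a nuclear receptor for fatty acids, rose 2.03-fold (1.02, SE 0.17, adjusted p = 0.000362), HSD17B4, a peroxisomal enzyme, 1.48-fold and ACADSB, a branched-chain dehydrogenase, 1.93-fold (adjusted p = 0.0119 and 0.00535). ACADSB was at 2.71 on STK38 shRNA replicate 4, within the control range of 2.56 to 2.80, and at 3.29 to 4.26 on the other arrays of that group.

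**Figure D5:**
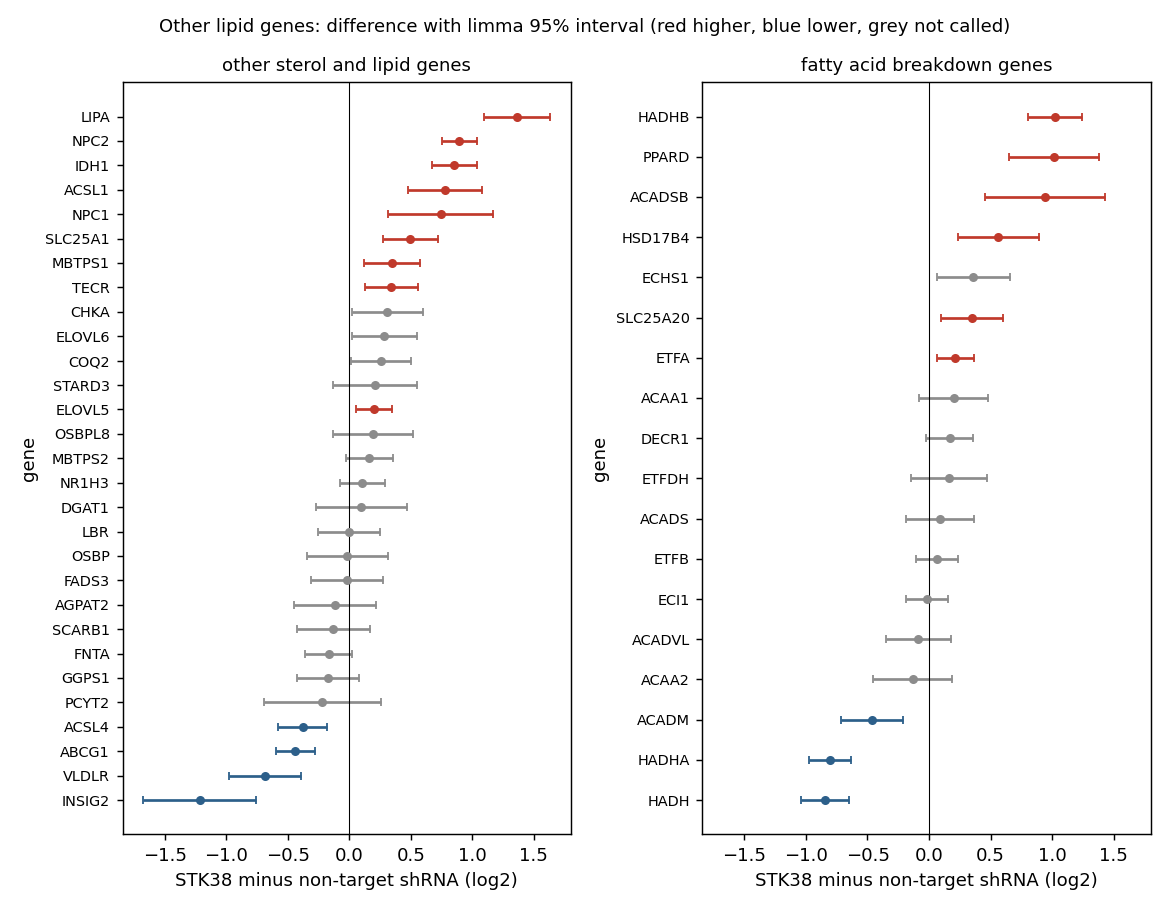
Difference between the groups (log2) with its 95% limma interval for the tested genes of other sterol and lipid metabolism (left) and of fatty acid breakdown (right), sorted by size, red where called higher, blue where called lower and grey where not called. Both lists hold calls on either side of 0, from LIPA at 1.37 down to INSIG2 at -1.22.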

How the data were processed

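RNA of 10 samples was read on HG-U95Av2 chips, 1 chip each. For 12625 probe sets the log2 values deposited by the authors were used unchanged; the submitters' processing notes name GCRMA and affy, with no version. The table states no scale; log2 is read from its values and from that tool. GCRMA pulls dim probe sets towards a floor, which shrinks their differences. Gene names came from GEO's annotation of the chip, and old symbols were replaced by RefSeq's through Entrez IDs (GRCh38.p14, names only): 10943 had 1 gene, 545 several and 1070 none, beside 67 controls.

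The 7535 probe sets whose overall mean reached the 40th percentile were tested, in R 4.3.3 with limma 3.58.1 (lmFit, eBayes with trend, group as the only term); p-values were adjusted by Benjamini-Hochberg (threshold 0.05), and every adjusted p is from that fit. A fold is the linear ratio of a log2 difference. Background is each array's 90th percentile of 23 mouse, yeast and reverse-strand controls. A gene not above it on any array of a group gets a bound: the brighter mean over the dim group's mean of whichever is higher on each array, background or signal. The fit was checked on 10 simulated data sets with 200 changed probe sets each and noise drawn independently for each value. It recovered 59.5% of log2 changes of 0.5 and 94.4% of changes of 1, and 6.2% of its calls were false. In such data sets a change of 0.5 can thus go uncalled. The measured data had 2256 calls, far more than the 200 changes simulated, so these rates may not hold for them. Plots used matplotlib 3.10.9.

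The genes, lists and tests were chosen with earlier results of these data known. All pathway genes are named; from other lists up to 6 called genes, larger differences first, and others as stated. Alternatives covered filter, scaling, variance model, array weights, threshold, probe set, replicate block and leaving out each array. The number of arrays limits the precision.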

Additional observations from a re-analysis of the deposited data

Results flagged for a closer look

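In 3 of 56 sets of 5 arrays, a gene's highest or lowest array lay further from its nearest neighbour than Dixon's 95% limit allows (a gap over 0.71 of the range); chance gives about 1 in 20, and none of the 3 was on STK38 shRNA replicate 4. EBP was at 7.08 on non-target replicate 4, where the other controls lay at 7.29 to 7.37, and without that array its difference was -0.69 instead of -0.64. SREBF2 was at 5.19 on non-target replicate 5, where the others lay at 5.57 to 5.71, and without that array its rise was 0.58 instead of 0.68 (limma adjusted p = 0.000528). FADS2 was at 2.66 on non-target replicate 1, where the others lay at 2.39 to 2.47, near background.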

How the results depend on the processing

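Over the alternatives, 16 of the 19 genes called higher were called in each; MSMO1, FASN and INSIG1 were lost in 13, 10 and 7 of 21, and no gene of the pathway reversed. Counts called higher ran from 16 (adjusted p under 0.01, or no variance trend) to 22 (array weights), and the median difference from 0.54 to 0.65. With array weights 2 genes were called lower, EBP and FABP5, and 1619 probe sets higher instead of 1064. With an adjusted p under 0.01, 1494 probe sets were called (650 higher), 5 other sterol and lipid genes higher and 3 fatty acid breakdown genes higher. Above the 60th percentile 2 of the other sterol and lipid genes were called lower. The cause of these changes was not tested. With single arrays left out, calls ran from 1938 to 2836, 867 to 1559 of them higher; 16 to 22 genes of the pathway were called higher and 1 to 2 lower. The highest counts of calls came without STK38 shRNA replicate 4, and the 2 lower calls without non-target replicate 5. The labels do not say whether the replicate numbers pair the arrays. Deviations of same-number arrays from their group means had correlations of -0.21 to 0.19, with 1 of 5 arrays closest to its own number. Such correlations cannot show whether these arrays were handled together. With the number as a replicate block 19 genes were called higher and 1 lower, among 2159 probe sets, and SLC25A20 was lost. ACACA, FADS2, MVK and the dimmer LSS probe set lay near background, which limits their differences; without the reverse-strand ACTB and GAPDH controls, 279 of 280 values of the pathway's main probe sets exceeded background, against 269.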

Other observations

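A probe set annotated to both CYP51A1, the sterol demethylase gene, and its neighbour LRRD1 stood at 4.13, 4.13, 4.10, 4.22 and 4.15 in the controls and at 5.03, 4.71, 4.38, 4.59 and 5.27 with the STK38 shRNA. It was called higher (log2 difference 0.65, SE 0.15, limma adjusted p = 0.00474), and which of the genes it measured cannot be told. Of 6 probe sets annotated to both FADS1 and MIR1908, the brightest had means of 2.63 ± 0.25 and 2.63 ± 0.35 (SD, n = 5 each), near background. Counting these probe sets too, a choice made after seeing the data, gave 20 of 30 genes higher and 1 lower, with a median of 0.61.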
